A study of Homo sapiens with 3 samples.

Results

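The pluripotent state of embryonic stem cells is marked by a small set of genes, of which 10 were examined in human neural stem cells: POU5F1, NANOG, LIN28A, LIN28B, DPPA4, ZFP42, TDGF1, PRDM14, KLF4 and SALL4. These 10 genes, of 20033 protein-coding genes in all, were chosen by name. All CHD8 and TRRAP peaks lying between 5 kb upstream of each gene and its end were collected, with genes taken from GENCODE release 44 on the GRCh38 build. The 10 genes divided evenly. LIN28A, LIN28B, DPPA4, KLF4 and SALL4 carried peaks of both proteins, whereas POU5F1, NANOG, ZFP42, TDGF1 and PRDM14 carried none of either. The strongest CHD8 peak, at the start of DPPA4, had a deposited fold of 20.4, and the strongest TRRAP peak, inside the annotated LIN28B gene, had a fold of 14.9 (the fold is the enrichment over background that the peak caller gave).

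The peaks came from chromatin immunoprecipitation followed by sequencing (ChIP-seq) of wild-type neural stem cells. These had been made from the human embryonic stem cell line H9 and were grown with EGF and FGF at 20 ng/ml each. One antibody was directed against CHD8, a chromatin remodeler, and the other against TRRAP, a scaffold of histone acetyltransferase complexes. Each antibody was represented by 1 library, so no difference can be set against replicate error and no test was made. The CHD8 list held 23393 peaks and the TRRAP list 14735. The read totals behind the lists are unknown. The control IgG library was not analysed here. A peak from a bulk culture does not tell binding in all cells from binding in some of them. Neither RNA nor protein of the 10 genes is measured in these lists.

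The pluripotent state is held by a network of transcription factors in which POU5F1 (OCT4), SOX2 and NANOG occupy one another's genes. When cells enter the neural lineage this network is largely shut down, while SOX2 stays in use. LIN28A and LIN28B bind RNA and block maturation of the let-7 microRNAs, and they fade more gradually during neural development than the core factors do. Chromatin at silenced pluripotency genes is commonly closed by DNA methylation and histone modification.

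Of the 10 genes, 5 had a CHD8 peak in their window (50.0%, Wilson 95% interval 23.7 to 76.3), beside 64.1% of all protein-coding genes. The same 5 had a TRRAP peak (50.0%, 23.7 to 76.3), beside 43.3% of all genes, and thus both peaks, beside 42.2%. Intervals cover counting error only, and they contain the background shares in all 3 cases. Close to the start site, within 1 kb on each side of the start of the canonical transcript, 5 genes had a CHD8 peak (background 55.9%), 4 had a TRRAP peak (background 34.9%) and 4 had both (background 34.0%). The gene that dropped out for TRRAP was SALL4. The counts alone therefore did not set the 10 genes apart from protein-coding genes at large.

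**Figure D1:**
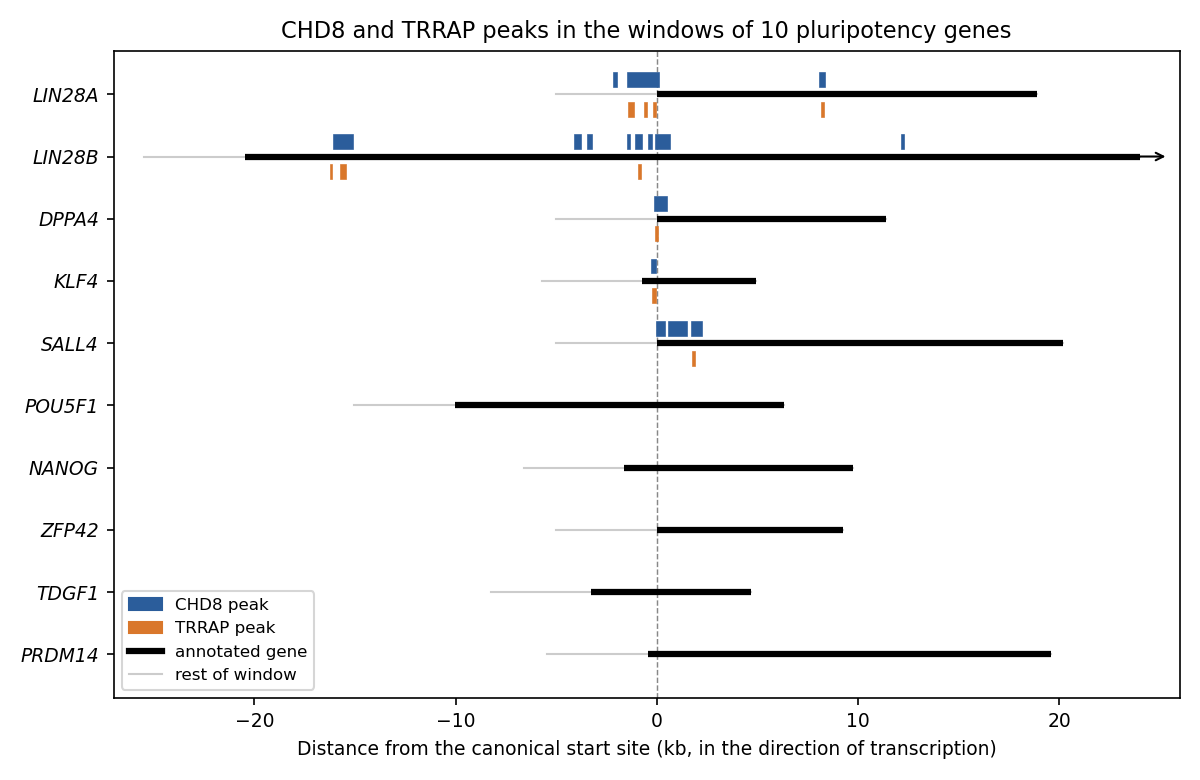
Each row is 1 gene, drawn in the direction of transcription with the canonical start site at 0 on the horizontal axis (kb). CHD8 peaks are blue boxes above the gene and TRRAP peaks orange boxes below it. The annotated gene is black and the rest of the window grey, and the LIN28B gene runs on past the right edge without further peaks. The 16 CHD8 and 10 TRRAP peaks lie in the upper 5 genes, and the lower 5 genes are empty. Summits within 1 kb of the canonical start number 6 for CHD8 and 5 for TRRAP.

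The sequences just before the start sites of genes with and without peaks are shown because both kinds of gene included promoters poor and rich in CpG dinucleotides. They are taken from RefSeq (GRCh38.p14), which matched 6 of the 10 genes, and run 5′ to 3′ on the strand of the gene up to the base before the start. POU5F1, LIN28A, PRDM14 and SALL4 had no entry. TDGF1 is listed there as CRIPTO. CpG dinucleotides are in capitals. The first 3 sequences belong to genes with peaks, at chr3:109337547-109337796 (DPPA4, minus strand), chr9:107489770-107490019 (KLF4, minus strand) and chr6:104956857-104957106 (LIN28B, plus strand).
DPPA4: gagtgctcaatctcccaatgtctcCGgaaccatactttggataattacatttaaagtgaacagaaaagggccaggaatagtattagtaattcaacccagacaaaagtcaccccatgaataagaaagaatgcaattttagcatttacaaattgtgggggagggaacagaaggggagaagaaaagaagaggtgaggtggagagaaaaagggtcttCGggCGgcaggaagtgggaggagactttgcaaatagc
KLF4: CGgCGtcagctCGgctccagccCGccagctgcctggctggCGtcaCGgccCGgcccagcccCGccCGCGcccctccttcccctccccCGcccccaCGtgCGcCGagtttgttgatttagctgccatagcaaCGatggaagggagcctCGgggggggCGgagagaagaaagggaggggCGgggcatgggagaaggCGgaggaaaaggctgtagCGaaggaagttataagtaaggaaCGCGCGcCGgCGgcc
LIN28B: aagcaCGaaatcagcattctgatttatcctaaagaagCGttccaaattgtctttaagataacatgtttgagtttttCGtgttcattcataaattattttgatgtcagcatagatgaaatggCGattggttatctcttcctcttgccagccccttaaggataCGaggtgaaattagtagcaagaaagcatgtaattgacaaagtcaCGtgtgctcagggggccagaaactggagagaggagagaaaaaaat
The next 3 belong to genes without peaks, at chr12:7789152-7789401 (NANOG, plus strand), chr4:187995521-187995770 (ZFP42, plus strand) and chr3:46577538-46577787 (TDGF1, plus strand).
NANOG: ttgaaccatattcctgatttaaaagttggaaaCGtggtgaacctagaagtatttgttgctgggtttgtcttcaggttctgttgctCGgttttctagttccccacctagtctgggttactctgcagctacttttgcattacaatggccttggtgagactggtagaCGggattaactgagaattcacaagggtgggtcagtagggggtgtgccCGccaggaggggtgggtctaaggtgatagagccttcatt
ZFP42: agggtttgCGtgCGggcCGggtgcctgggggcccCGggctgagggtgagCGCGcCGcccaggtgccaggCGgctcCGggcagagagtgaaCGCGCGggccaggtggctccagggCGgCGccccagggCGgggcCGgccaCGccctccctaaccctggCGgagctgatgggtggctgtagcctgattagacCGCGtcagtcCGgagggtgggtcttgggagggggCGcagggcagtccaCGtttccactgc
TDGF1: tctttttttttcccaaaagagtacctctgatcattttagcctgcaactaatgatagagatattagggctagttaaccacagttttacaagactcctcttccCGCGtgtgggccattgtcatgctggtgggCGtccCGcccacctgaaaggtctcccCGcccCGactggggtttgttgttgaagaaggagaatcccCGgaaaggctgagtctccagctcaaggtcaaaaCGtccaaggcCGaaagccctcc

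In these 250 bases DPPA4 had 3 CpGs, LIN28B 6 and KLF4 25. NANOG had 4, TDGF1 9 and ZFP42 23. The median over the 35116 RefSeq promoters was 11. DPPA4, with the strongest CHD8 peak of the 10 genes, thus had the fewest CpGs of the 6 promoters shown, and ZFP42, without any peak, had nearly as many as KLF4.

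DPPA4 encodes a chromatin protein of pluripotent and early embryonic cells and lies on the minus strand of chromosome 3 (chr3:109326144-109337546). Its 1 CHD8 peak, chr3:109337023-109337676, was 654 bp wide with a fold of 20.4 and a −log10 q of 47.4 (q is the p-value of the peak adjusted for the number of tests). Peaks were ranked within their own list by −log10 q, with ties broken by fold, then width, then position. This peak had rank 1773, so that 7.57% of CHD8 peaks were stronger. Here and below, stronger means ranked ahead, which can include peaks of equal fold and −log10 q placed ahead by width or position. The summit lay 31 bp downstream of the start site, in the coding part of exon 1. The TRRAP peak, chr3:109337480-109337645, was weaker within its list, with a fold of 8.17, a −log10 q of 9.79 and rank 8051, and 54.6% of TRRAP peaks were stronger. Its summit lay 2 bp upstream of the start site and 33 bp from the CHD8 summit. A long noncoding RNA gene, ENSG00000289358, starts 192 bp from the TRRAP summit and is transcribed away from DPPA4, so that peaks there cannot be assigned to one of the 2 start sites. DPPA2, the neighbour and close relative of DPPA4, had no peak of either protein. The DPPA4 peak was the 1 CHD8 peak within 500 kb of the start site on either side. Of all protein-coding genes, 5.17% had at most 1 CHD8 peak in such a stretch.

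LIN28A lies on chromosome 1 (chr1:26410817-26429728) and had 3 CHD8 and 4 TRRAP peaks. The main CHD8 peak, chr1:26409325-26410933, covered 1609 bp from the upstream region across the start site. Its fold was 16.8 and its −log10 q 35.2 (rank 2763, 11.8% of peaks stronger), and 98.6% of CHD8 peaks were narrower. The summit of this broad peak lay 1322 bp upstream of the start and not at the start itself. Inside it lay 3 separate TRRAP peaks, with summits 1329, 610 and 107 bp upstream of the start and folds of 8.65, 6.73 and 8.65. The farthest upstream of these TRRAP summits was 7 bp from the CHD8 summit.
A second site in LIN28A carried both proteins: in intron 2, CHD8 at chr1:26418889-26419180 (fold 9.75, −log10 q 14.8) and TRRAP at chr1:26418995-26419130 (fold 6.73, −log10 q 6.39) had summits 16 bp apart, 8240 and 8224 bp downstream of the start. Another, weak CHD8 peak (chr1:26408665-26408819, fold 7.54) lay 2073 bp upstream and had no TRRAP partner. The nearest start of another gene, that of DHDDS, was at least 13225 bp away from each of the 7 summits.

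LIN28B, the paralog of LIN28A, is annotated over chr6:104936616-105083332 and is much longer than the others, with a window of 152 kb against 10.6 to 25.2 kb for the other 9 genes. It had 8 CHD8 and 3 TRRAP peaks. At least 8 CHD8 peaks were found in the windows of 95 genes (0.474%), and in 18 of the 2295 genes whose windows were 100 to 200 kb long (0.784%), where the median was 1. LIN28B thus had more CHD8 peaks than nearly all genes of similar length.
Of its CHD8 peaks, 5 were clustered just before the canonical start site (104957107). Their summits lay 3976, 3318, 1447, 845 and 326 bp upstream, with folds of 7.98, 9.31, 8.87, 9.31 and 7.10. A sixth peak, chr6:104957028-104957743, covered the start itself, with its summit 118 bp downstream in the untranslated part of exon 1 and a fold of 9.31. These 6 peaks were of middling to low rank, with 48.4% to 80.7% of CHD8 peaks stronger.
Of the cluster, 1 peak had a TRRAP partner, chr6:104956177-104956301. That partner had a fold of 5.78, and 98.0% of TRRAP peaks were stronger. A weak CHD8 peak in intron 2 (fold 6.66, summit 12248 bp downstream) stood alone.

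The strongest signals of LIN28B lay elsewhere, at the far 5′ end of the annotated gene. There the TRRAP peak chr6:104941381-104941666 had a fold of 14.9 and a −log10 q of 27.3 (rank 1711, 11.6% of TRRAP peaks stronger), and the CHD8 peak chr6:104941039-104942016 had a fold of 10.6 and a −log10 q of 17.3 (rank 8571, 36.6% of CHD8 peaks stronger). The summits lay 15554 and 15460 bp upstream of the canonical start, 94 bp apart. This place holds the starts of 2 long noncoding RNA genes, LIN28B-AS1 and ENSG00000290011, and the latter starts 71 bp from the TRRAP summit. A start site of LIN28B itself is annotated nearby. RefSeq places it at position 104940965, 16142 bp upstream of the canonical start, and a weak TRRAP peak, chr6:104940846-104940989 (fold 6.26, 89.9% of peaks stronger), covered it. GENCODE starts a LIN28B transcript 62 bp from the summit of this peak. The 151 bases before that point, chr6:104940715-104940865 on the plus strand, are shown because they differ from the canonical promoter: they hold 25 CpGs (in capitals), against 6 in the 250 bases before the canonical start.
LIN28B, upstream start: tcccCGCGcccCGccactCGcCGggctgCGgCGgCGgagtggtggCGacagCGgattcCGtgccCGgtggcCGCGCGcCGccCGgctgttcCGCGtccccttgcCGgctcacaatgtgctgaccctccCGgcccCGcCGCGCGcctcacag

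KLF4, a zinc finger factor used in reprogramming and also active in many somatic tissues, lies on chromosome 9 (chr9:107484852-107490482, minus strand) and had the weakest CHD8 signal of the 5 genes. Its CHD8 peak, chr9:107489785-107490050, had a fold of 7.10 and a −log10 q of 9.04, a value shared by 3372 peaks of the list, and 78.8% of CHD8 peaks were stronger. The TRRAP peak, chr9:107489805-107490005, had a fold of 8.17 and a −log10 q of 9.79 (53.2% of TRRAP peaks stronger). The summits lay 161 and 148 bp upstream of the start site and 13 bp apart. The E-box word CACGTG, the site of MYC and MAX, begins 157 bp upstream of the start in the KLF4 sequence printed above and so lies between the 2 summits.

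SALL4, a zinc finger factor that sustains POU5F1 expression in stem cells, lies on chromosome 20 (chr20:51782331-51802521, minus strand) and had 3 CHD8 peaks in a row at its 5′ end. The first, chr20:51802118-51802542, covered the start site with a fold of 10.6 (summit 182 bp downstream, in the coding part of exon 1). The second, chr20:51801010-51801950, was the strongest, with a fold of 13.3, a −log10 q of 25.2 and rank 5223 (22.3% of CHD8 peaks stronger), and its summit lay 1017 bp downstream in intron 1. A start of another SALL4 transcript lies 82 bp from that summit. The third, chr20:51800278-51800841 (fold 8.43, summit 1818 bp downstream), was the 1 CHD8 peak of the gene with a TRRAP partner. That TRRAP peak, chr20:51800608-51800763, had a fold of 7.21, with its summit 25 bp from the CHD8 summit, and 71.7% of TRRAP peaks were stronger. At SALL4 the strongest CHD8 peak and the TRRAP peak were thus not at the same place.

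**Figure D2:**
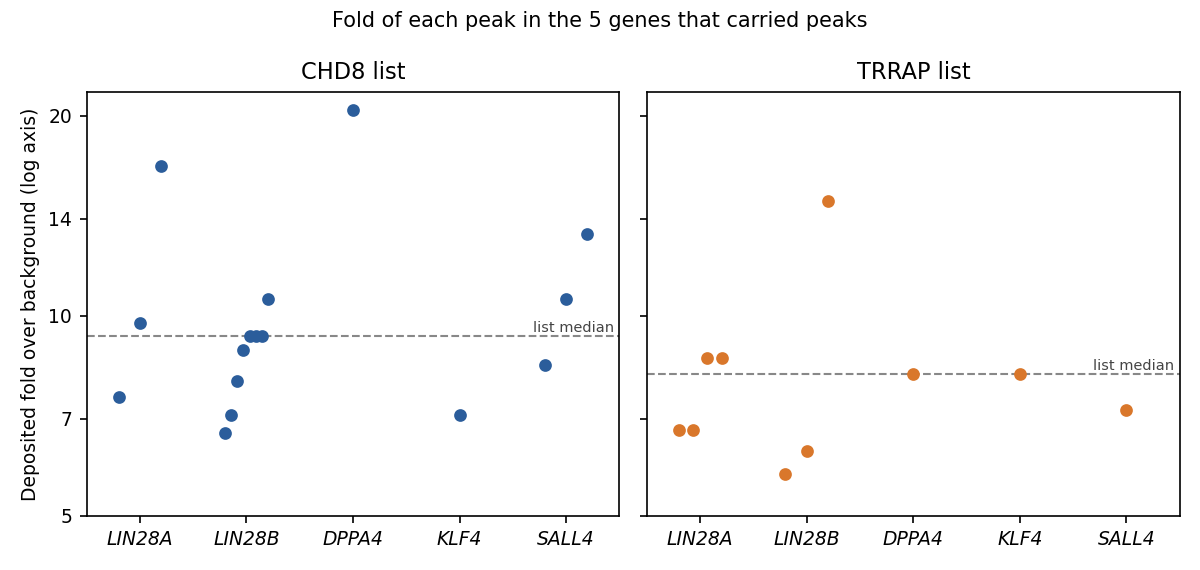
Deposited fold of every peak (log vertical axis) by gene, with CHD8 peaks on the left and TRRAP peaks on the right. Each point is 1 peak and the dashed line is the median of the whole list (9.31 for CHD8, 8.17 for TRRAP), so that the 2 panels are read each against its own line. DPPA4 holds the highest CHD8 point (20.4) and LIN28B the highest TRRAP point (14.9).

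Across the 5 genes the 16 CHD8 peaks had a median fold of 9.31, equal to the list's own median of 9.31, and a median width of 352 bp beside 376 bp. The 10 TRRAP peaks had a median fold of 7.69 beside 8.17 in the list, and a median width of 150 bp beside 229 bp. In the upper part of their list's ranking, above its median, were 7 of the 16 CHD8 peaks and 3 of the 10 TRRAP peaks. Of the CHD8 peaks, 1 (that of DPPA4) ranked in the top 10%, and of the TRRAP peaks 0 did. With peaks above the median rank alone, KLF4 lost its CHD8 peak and the number of genes with TRRAP fell from 5 to 2, LIN28A and LIN28B. The lost TRRAP peaks of DPPA4 and KLF4 had the median values of their list (fold 8.17, −log10 q 9.79), a q shared by 1039 peaks. They fell below the median rank through the tie-break, whereas the SALL4 peak (fold 7.21) was below the median itself. A LIN28B CHD8 peak counted above the median was likewise tied with it (fold 9.31, −log10 q 13.6).

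Peaks of the 2 proteins overlapped, sharing at least 1 bp, in 9 of the 10 TRRAP peaks (90.0%, beside 86.8% of the whole TRRAP list) and in 7 of the 16 CHD8 peaks (43.8%, beside 48.6% of the CHD8 list). The 9 CHD8 peaks without TRRAP belonged to LIN28B (6), SALL4 (2) and LIN28A (1). Of the 32-base words within 50 bp of each of the 26 summits, all occurred once in the reference at 24 summits. At the other 2, a LIN28B and a SALL4 CHD8 peak, 70.0% and 91.4% did.

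The 5 genes without peaks differed widely in how far away the nearest peak was. At POU5F1 (chr6:31164337-31180731, minus strand), which encodes OCT4, the central factor of the network, the nearest CHD8 summit lay 12.2 kb downstream of the start site, in the peak chr6:31158096-31158678 (fold 11.1) at the start of the neighbouring gene TCF19. The nearest TRRAP summit was 284 kb away. This part of chromosome 6 was rich in peaks, with 31 CHD8 and 17 TRRAP peaks within 500 kb of POU5F1, beside medians of 12 and 7 over all protein-coding genes. For CHD8, POU5F1 thus stood empty beside an occupied neighbour, while the nearest TRRAP peak was far away.

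NANOG (chr12:7787794-7799146), the homeobox factor of the core network, had its nearest CHD8 and TRRAP summits 144 and 147 kb away, near SLC2A3. Within 500 kb there were 10 CHD8 and 4 TRRAP peaks. TDGF1 (chr3:46574534-46582457), a co-receptor for NODAL also known as Cripto, had its nearest summits 315 kb (CHD8) and 399 kb (TRRAP) away, with 3 peaks of each protein within 500 kb. PRDM14 (chr8:70051651-70071693, minus strand), a factor of naive pluripotency and germ cells, had a lone CHD8 peak 22.2 kb upstream (chr8:70093355-70093508, fold 8.43), and its nearest TRRAP summit was 237 kb away near SLCO5A1. ZFP42 (chr4:187995771-188005046), also called REX1 and related to YY1, was the most isolated of the 10 genes. Its nearest CHD8 summit was 1060 kb and its nearest TRRAP summit 1240 kb away, and no peak of either list lay within 500 kb. The same held for 2.71% of all genes for CHD8 and 6.02% for TRRAP.

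**Figure D3:**
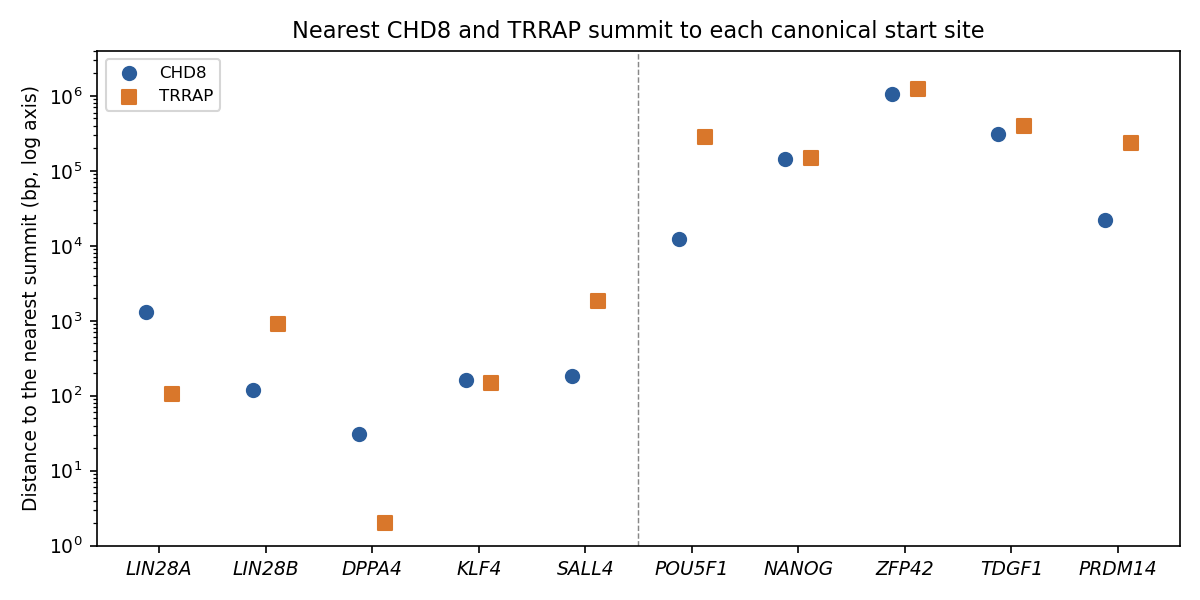
Distance in bp (log vertical axis) from the canonical start site of each gene to the nearest CHD8 summit (blue circles) and TRRAP summit (orange squares). Genes left of the dashed line carry peaks in their window and lie between 2 and 1843 bp, and genes right of it lie between 12154 and 1238192 bp.

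With 10 kb upstream in place of 5 kb the counts were the same. That alternative does not reach past the gene end, where the nearest peak to any of the 5 empty windows lay: the CHD8 peak at TCF19 was 5.66 kb outside the POU5F1 window. The next nearest was the upstream CHD8 peak of PRDM14, 16.7 kb outside. The nearest TRRAP peaks were 137 kb (NANOG) or more outside. The median distance to the nearest CHD8 summit was 144 kb in these 5 genes, beside 79.6 kb in the 6969 protein-coding genes that had no peak of either protein in the window. For TRRAP it was 284 kb beside 128 kb in the same genes.

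Repeated sequence touched the empty genes unequally. Of the 32-base words within 500 bp of the start site, those found once in the reference made up 44.4% at NANOG, 52.7% at TDGF1 and 67.5% at POU5F1, genes known to have processed or duplicated pseudogenes. At ZFP42 they made up 97.4% and at PRDM14 100%. Among the genes with peaks they made up 85.9% (DPPA4) to 100% (LIN28B and KLF4). How reads with several matches were treated is not given in the sources used here, and its part in the empty windows of NANOG, TDGF1 and POU5F1 was not tested. At ZFP42 and PRDM14 nearly all of the sequence around the start was unique and no peak was called. Over the whole windows the share of words found once was lower, at 78.0% for ZFP42 and 82.4% for PRDM14. It was 62.9% at NANOG, 68.7% at TDGF1 and 75.8% at POU5F1, and 80.5% (DPPA4) to 91.4% (KLF4) among the genes with peaks.

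Over all protein-coding genes the share with a promoter peak of either protein rose with the CpG content. The CpG ratio, the observed number of CpGs over the number expected from the C and G content, was taken from 500 bp upstream to 500 bp downstream of the start. In decile 3 of this ratio (0.307 to 0.542), 19.4% of 2003 genes had a CHD8 promoter peak, 7.14% a TRRAP promoter peak and 6.24% both. LIN28A (0.503), LIN28B (0.527) and DPPA4 (0.476) all fell in this decile and all had both peaks within 1 kb of the start. POU5F1 (0.361) and TDGF1 (0.479) fell in the same decile and had neither. DPPA4, the strongest CHD8 promoter of the 10 genes, and TDGF1, an empty one, thus had nearly the same CpG ratio (0.476 and 0.479).

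The other direction was present as well. ZFP42 (0.723) was in decile 5, in which 72.8% of genes had a CHD8 promoter peak and 38.6% a TRRAP promoter peak, and PRDM14 (0.789) in decile 7, with 79.2% and 48.0%. Neither gene had a peak. SALL4 (0.673, decile 5) and KLF4 (1.03, decile 10, 86.1% and 67.5%) had a CHD8 promoter peak, as most genes of their deciles did. NANOG (0.297) was in decile 2, in which 5.89% of genes had a CHD8 promoter peak. Genes with peaks ranged from 0.476 to 1.03 and genes without from 0.297 to 0.789, so the 2 ranges overlapped. The CHD8 promoter shares of the deciles in which the 10 genes fell averaged 41.4%, beside 50.0% of the genes themselves, and the TRRAP shares averaged 23.1%, beside 4 of the 10 genes. With the ratio taken over 1 kb on each side, LIN28A, LIN28B and TDGF1 moved to decile 4, in which 58.1% of genes had a CHD8 promoter peak, and the CHD8 average became 52.3%, so the low share beside LIN28A and LIN28B depended on this choice. DPPA4 stayed in decile 3, at 22.3%. POU5F1 moved to decile 2, at 5.39%, and then shared its decile with none of the genes with peaks. ZFP42 and PRDM14 moved to deciles 7 and 9, at 78.1% and 81.9%.

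**Figure D4:**
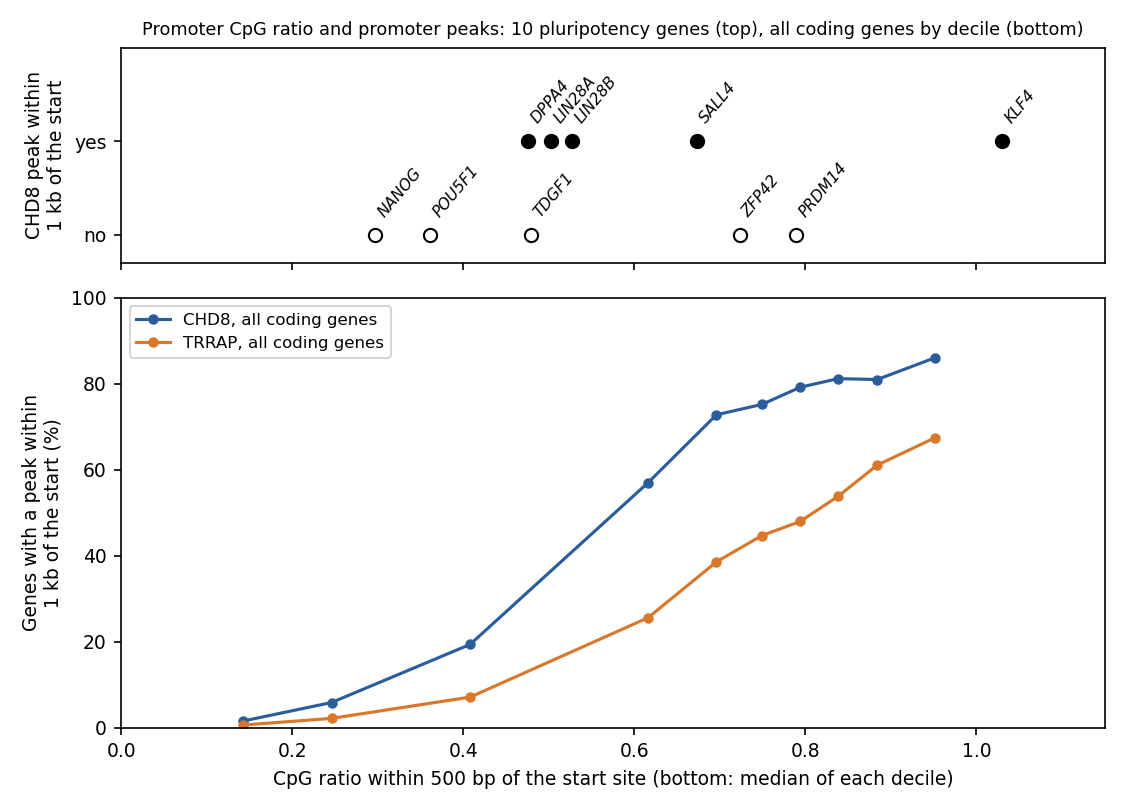
Top, CpG ratio of each of the 10 genes, with filled points in the upper row for genes with a CHD8 peak within 1 kb of the start and open points in the lower row for genes without. Bottom, percentage of all protein-coding genes with a CHD8 (blue) or TRRAP (orange) peak within 1 kb of the start, by decile of the ratio at its median. The share climbs from 1.60% to 86.1% for CHD8, while filled and open points are interleaved.

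The sequence up to 100 bp from each summit was searched for exact copies of short binding-site words on either strand. The words were CACGTG (E-box), TTTGGCGC, TTTCGCGC, TTTGGCGG and TTTCCCGC (E2F), ATGCAAAT (octamer, bound by POU factors), ACAAAG and ACAATG (SOX), GGGCGG (SP), GGGTGTGG (KLF), CCAAT (NFY), AAGATGGCG (YY1), ACCGGAAGT (ETS) and NRF1. None of these words holds another, and words may overlap in a sequence. The octamer was found at 0 of the 16 CHD8 and 0 of the 10 TRRAP summits, beside 0.842% and 0.818% of all peaks of the lists on the main chromosomes. A SOX word was found at 8 of 16 CHD8 summits, in LIN28A, LIN28B, DPPA4 and SALL4, beside 21.4% of all CHD8 peaks, and at 5 of 10 TRRAP summits, beside 24.4%. These are short words, several of the summits belong to 1 gene, and the counts are a description.

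The SP word was found at 6 of 16 CHD8 summits (all peaks 45.3%) and 6 of 10 TRRAP summits (50.9%). The E-box was found at the KLF4 peaks of both proteins (all peaks 5.37% for CHD8 and 7.03% for TRRAP), and an E2F word at a LIN28B peak of each protein (2.59% and 3.12%). In the printed promoters, the E-box of LIN28B begins 47 bp upstream of the canonical start. Before the canonical starts, SOX words begin 112 bp upstream in NANOG (ACAATG), 54 bp in LIN28B (ACAAAG) and 138 bp in TDGF1 (CATTGT, on the opposite strand). Of all RefSeq promoters, which here ran from 250 bases before to 50 after the start, 7.26% held an E-box and 24.5% a SOX word.

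A further 38 genes of the pluripotent state, in 4 groups, were examined in the same windows. Of these, 17 had a CHD8 peak (44.7%, 30.1 to 60.3), beside 64.1% of all protein-coding genes. TRRAP had a peak in 11 (28.9%, 17.0 to 44.8), beside 43.3%, and 10 had both (26.3%, 15.0 to 42.0), beside 42.2%. The interval for CHD8 and that for both lay below the share of all genes, and that for TRRAP contained it. Within 1 kb of the start site 10 had CHD8 (26.3%, 15.0 to 42.0), beside 55.9% of all genes, and 9 had TRRAP (23.7%, 13.0 to 39.2), beside 34.9%. The median CpG ratio of the 38 genes was 0.717, beside 0.725 over all genes, and their median window was 21.2 kb, beside 32.5 kb. Among 17 transcription factors, 8 had CHD8 and 4 had both: SOX2, MYCN, KLF2 and ZSCAN10. SOX2, the core factor that remains in use in neural stem cells, had 3 CHD8 and 2 TRRAP peaks. Its partners POU5F1 and NANOG had 0. The other 4 with CHD8 lacked TRRAP: FOXD3 and KLF5 had CHD8 near the start (folds 7.10 and 7.98), and ESRRB and NR5A2 had 1 CHD8 peak each, away from it (folds 7.54 and 5.77).

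Of 6 genes of NODAL and FGF signalling, the pathway that TDGF1 serves, FOXH1 alone had peaks in its window. There were 2 CHD8 peaks, the stronger with a fold of 13.3 and its summit 2108 bp upstream of the start. No FOXH1 peak lay within 1 kb of the start. NODAL, LEFTY1, LEFTY2, GDF3 and FGF4 had none, like TDGF1. Of 10 genes of chromatin, RNA and telomeres, 4 had CHD8 (JARID2, DNMT3B, TRIM71 and DNMT3L) and 4 had TRRAP (JARID2, DNMT3B, TRIM71 and TERT). TRIM71, a target of let-7 and thus downstream of the LIN28 proteins, had a TRRAP peak with a fold of 24.4 and its summit 1126 bp upstream. JARID2, a subunit of Polycomb complexes, had 9 CHD8 and 4 TRRAP peaks, and DNMT3B, a DNA methyltransferase, 4 and 3. DPPA2, DPPA3, DPPA5, L1TD1 and USP44 had neither protein. Among 5 surface markers CDH1 (E-cadherin) alone had no peak of either, and PODXL, PROM1 and EPCAM had both. The most significant CHD8 peaks of the 38 genes were those of JARID2 and EPCAM (both with a fold of 16.8 and a −log10 q of 35.2). The JARID2 summit lay 511 bp upstream of the start and the EPCAM summit 24200 bp upstream. EPCAM had no peak of either protein within 1 kb of its start. MYCN, FOXH1 and TRIM71 followed in significance with tied values (fold 13.3, −log10 q 25.2). Their summits lay 104 bp upstream, 2108 bp upstream and 51799 bp downstream of the start.

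Relatives of the 10 genes were then compared with them, family by family. Among POU genes, POU2F1 and the neural factors POU3F1, POU3F2 and POU3F3 had both peaks, with CHD8 folds of 19.0, 8.43, 12.4 and 12.4. POU3F4 had neither, like POU5F1. Of the SALL genes, SALL1 and SALL2 had both, as SALL4 did, and SALL3 had neither. TRRAP at SALL1 had a fold of 24.9, against 7.21 at SALL4. All 7 of KLF3, KLF6, KLF7, KLF9, KLF10, KLF11 and KLF13 had both proteins. Their strongest CHD8 peaks had folds of 9.75 to 12.8, each above the 7.10 of KLF4. The KLF genes of the pluripotency list were nearer to KLF4 or empty: KLF2 had both proteins (CHD8 fold 6.66), KLF5 had CHD8 without TRRAP (7.98) and KLF17 had neither. YY1, the relative of ZFP42, had both peaks (CHD8 fold 30.1, rank 626), and YY2, a retrocopy of YY1, had neither. All 6 PRDM genes had CHD8 and 4 had TRRAP, with the strongest CHD8 peak at PRDM10 (fold 35.8), and the 2 without TRRAP were PRDM1 and PRDM16. Those 2 had no CHD8 peak within 1 kb of the start. Their strongest CHD8 summits lay 93682 bp upstream (PRDM1) and 36603 bp downstream (PRDM16). CFC1, the relative of TDGF1, had neither. In total 20 of 24 relatives had CHD8 (83.3%, 64.1 to 93.3), beside 64.1% of all genes, and 18 had both (75.0%, 55.1 to 88.0), beside 42.2%. Within 1 kb of the start 18 had CHD8 (75.0%, 55.1 to 88.0), an interval that contains the 55.9% of all genes. Both proteins were there in 16 (66.7%, 46.7 to 82.0), beside 34.0%. The relatives also had a higher median CpG ratio (0.867, beside 0.515 for the 10 genes) and longer windows (median 30.6 kb, and 115 kb for the PRDM genes, beside 18.9 kb), whose part in these counts was not tested.

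Marker genes of other states were set beside them. All 10 neural stem cell markers had a CHD8 peak (interval 72.2 to 100%), beside 64.1% of all protein-coding genes. A TRRAP peak was present in 9 of these markers (90.0%, 59.6 to 98.2), beside 43.3% of all genes, with FABP7 the exception. The strongest CHD8 peaks among the neural stem cell markers were those of NOTCH1 (fold 23.0), NES (23.0) and MSI1 (22.1), above the 20.4 of DPPA4. The NES and MSI1 summits lay 3425 and 7448 bp downstream of the start, unlike that of DPPA4. The strongest CHD8 peak of all the marker lists was at a neuronal gene, SNAP25 (fold 38.0, summit 28 bp upstream). The median CpG ratio of the neural stem cell markers was 0.766. SOX2 is in both this list and the further pluripotency list. Of 10 neuronal markers 4 had both (MAP2, SNAP25, SYT1 and TUBB3). Of 10 mesoderm and endoderm genes, 2 had CHD8 (MESP1 and MIXL1), or 20.0% beside 64.1% of all genes. TRRAP was found at 0 of them (upper Wilson limit 27.8%), beside 43.3% of all genes. The median CpG ratio of these mesoderm and endoderm genes was 0.764. With lists of 10 genes the intervals are wide. The interval of the pluripotency genes (23.7 to 76.3%) overlapped those of the neuronal (16.8 to 68.7%) and of the mesoderm and endoderm genes (5.67 to 51.0%) for CHD8, and narrowly that of the neural stem cell markers. Occupancy by CHD8 or TRRAP is not expression, and these counts describe the lists without typing the cells.

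**Figure D5:**
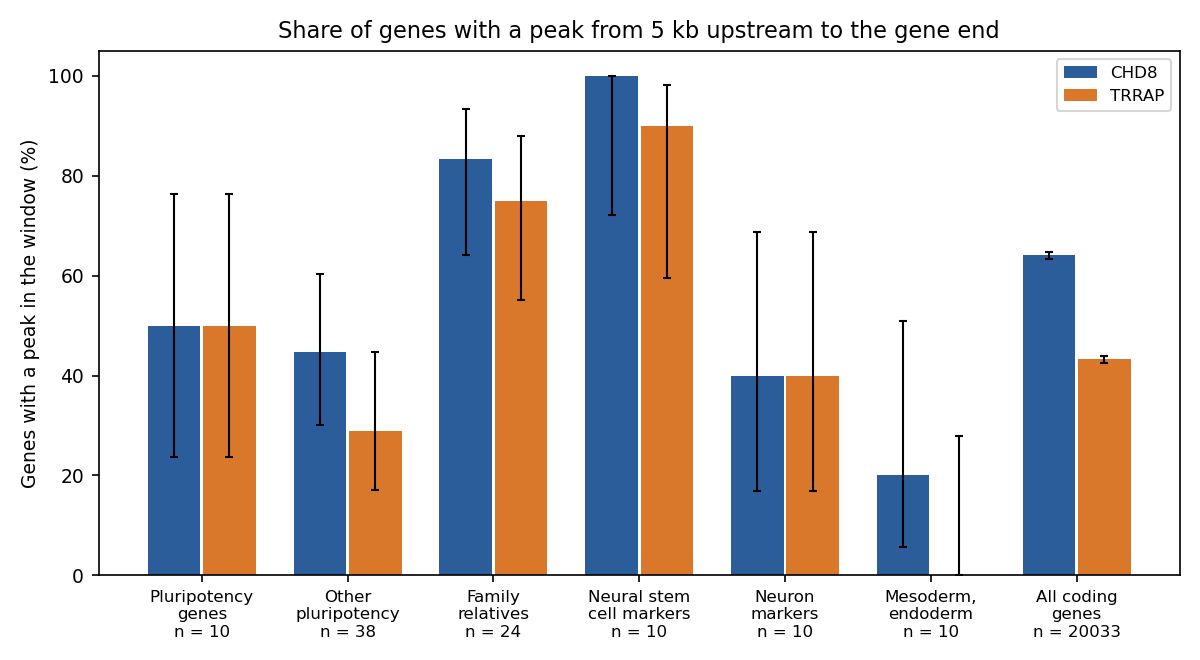
Bars give the percentage of genes in each list with a CHD8 (blue) or TRRAP (orange) peak from 5 kb upstream to the gene end, and error bars are Wilson 95% intervals, which cover counting error only. The number of genes is under each name. The pluripotency genes stand at 50.0% for both proteins, between the mesoderm and endoderm genes (20.0% and 0%) and the neural stem cell markers (100% and 90.0%). All coding genes stand at 64.1% for CHD8 and 43.3% for TRRAP, within the intervals of the pluripotency genes.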

How the data were processed

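The deposited peak lists, 1 for each antibody, came from 1 CHD8 and 1 TRRAP library of wild-type H9-derived neural stem cells, fixed with 2 mM DSG and 1% formaldehyde and sonicated for 14 cycles per the labels' protocols. HISAT2, MACS2 (2.1.1.20160309) and the GRCh38 build are named by the submitters' processing notes. The control library, duplicate removal and filters used are not given in the sources used here. Each deposited list gives, per peak, a fold enrichment as a linear ratio, −log10 of p and q values and a score of 10 times the −log10 q, as computed by the authors' peak caller. These are the authors' values and served here to describe and rank peaks within a list. The lowest −log10 q was 4.05 for CHD8 and 3.43 for TRRAP.

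Windows were built from GENCODE release 44 with Python 3.11.15, pandas 2.3.3 and pysam 0.24.0. A peak counted when it shared at least 1 bp with the window. Shares carry Wilson 95% intervals (scipy 1.17.1). With 1 library per antibody no test was possible. The overlap counting was tested on simulated data. Repeated sequence was counted with 32-base words. The alternatives were other windows, rank and q thresholds, other overlap rules, peaks at the start of another gene left out and a wider CpG span. All 10 genes were named, with every peak, and listed genes were named where 5 or fewer of a group had or lacked a peak or among the 3 strongest, with a few others named after their values were seen. The genes and lists were chosen with earlier results of these data known.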

Additional observations from a re-analysis of the deposited data

How the results depend on the processing

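Of 27 counts of the 10 genes under alternative settings, 25 stayed within 1.5 times the count reported. No gene was gained under the 9 settings tried, but 10 kb upstream was the only one that could add a gene. The others narrowed the window or the set of peaks, so they could not fill an empty window. The q threshold of 0.0001 could not change the CHD8 counts either, since all 23393 CHD8 peaks met it. With peaks above the median rank alone, 2 genes had a TRRAP peak and 2 had both, and 4 had a CHD8 peak. DPPA4, KLF4 and SALL4 lost TRRAP and KLF4 lost CHD8. The TRRAP peaks of DPPA4 and KLF4 were tied with the list median in fold and −log10 q, so their loss rested on the tie-break. Leaving out peaks at the start of any other annotated gene took DPPA4 from both counts, whose peaks lie 225 and 192 bp from the start of a long noncoding RNA gene, and leaving out those at other protein-coding starts took none. The shares of all protein-coding genes with CHD8, TRRAP and both moved by more than their counting intervals: 61.1%, 37.8% and 36.7% in the gene span alone, 65.6%, 44.9% and 43.8% with 10 kb upstream, 62.4%, 41.4% and 40.3% for the canonical transcript, and 55.9%, 34.9% and 34.0% within 1 kb of the start. The first and last of these hold less sequence per gene and the second more. Counting TRRAP peaks within 1 kb as partners gave 12 CHD8 peaks with TRRAP in place of 7. With CpG counted over 1 kb, the mean CHD8 share of the deciles was 52.3% in place of 41.4%. With 1 library per antibody no replicate could be left out. Read totals are unknown, so the depth behind the 5 empty windows is too.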
